A study of Drosophila melanogaster with 38 samples.

Results

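The values described here cover the late chase of wild-type (WT) Drosophila melanogaster larvae, from 12 to 24 h after the end of metabolic labelling of O-GlcNAc. All 1883 O-GlcNAc peaks of the deposited table were taken, with no selection on their values, and the WT signal at 16, 20 and 24 h was set against that at 12 h. These times are 8 of the 38 libraries of the series and 4 of its 16 signal columns. WT larvae were of the Oregon R strain. Their eggs were laid on food holding 150 uM Ac4GalNAz, an azide-bearing sugar dissolved in DMSO, and the animals stayed on it for 36 h. The larvae were then moved to food holding DMSO alone, the chase, and were collected as pools of whole animals with 2 biological replicates for each time. Larvae with a knockout of the O-GlcNAc hydrolase OGA (OGA-null), fed and chased in the same way, are used for comparison at the same 4 times. Every one of these groups had been fed the sugar, and the larvae aged and fed during the chase, so chase time and age cannot be told apart.

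O-GlcNAc is a single sugar that a transferase places on proteins of the nucleus and cytoplasm and that OGA removes. In flies the transferase is encoded by the Polycomb group gene super sex combs, and O-GlcNAc is known at sites bound by Polycomb proteins. Cells turn Ac4GalNAz into an azide-bearing donor sugar, so that proteins modified during feeding carry a chemical handle. In O-GlcNAc-seq that handle is coupled to biotin, labelled chromatin is pulled down and its DNA is sequenced. The signal at a peak during the chase therefore comes from labelled protein that is still at that piece of chromatin, and it falls by removal of the sugar, by loss of the protein or by dilution, which the assay does not tell apart.

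Each deposited column combines both replicates of a time. No spread between replicates could be given, no difference between times was tested, and ranges below are over peaks. The scaling of the columns is not stated and depth is unknown. A level compared between times rests on that scaling, whereas a comparison of peaks within 1 column does not. No value of unfed larvae was analysed here, and the background of the pull-down is not known here. Positions are those of the dm3 build and start at 1. Peaks carry no gene annotation, because the annotation used here is of another build.

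The WT signal fell from 12 to 24 h, slowly at first and faster in each later step. Over the 1883 peaks the median signal per base was 5.41 at 12 h and 4.54 at 16 h, then 2.68 at 20 h and 1.02 at 24 h. For scale, it had been 32.9 at the start of the chase and was 0.169 at 36 h. No peak was at 0 between 12 and 24 h, and 1877 of the 1883 peaks had more signal at 24 h than at 36 h, by a median ratio of 5.97 over the 1848 peaks above 0 at 36 h. The late columns thus lay above the last time point at nearly every peak.

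Of its 12 h signal, the median peak kept 85.7% at 16 h, 49.6% at 20 h and 18.7% at 24 h. Summed over all peaks the signal kept was 88.1%, 49.9% and 18.6%, so weighting the peaks by their signal gave nearly the same shares as the median peak. Taken step by step, the median share kept was 57.5% from 16 to 20 h and 38.1% from 20 to 24 h. As apparent half-lives, which assume an exponential decline of the scaled signal within a step, the medians correspond to 18.0 h from 12 to 16 h, 5.01 h from 16 to 20 h and 2.87 h from 20 to 24 h. The earlier steps of the same larvae gave 3.78 h from 0 to 4 h, 7.12 h from 4 to 8 h and 4.05 h from 8 to 12 h, so the 12 to 16 h step was the slowest and the 20 to 24 h step the fastest of these 6.

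A straight line was fitted through the 4 medians of log2 signal of whole peaks, not divided by width. Its slope was -0.202 ± 0.0487 (SE of the fit) per hour, which corresponds to 4.95 ± 1.19 h for a loss of 50%. The error is the scatter of 4 combined values about the line, not that of replicates. The medians at 16 and 20 h lay 0.31 log2 above the line and those at 12 and 24 h 0.31 log2 below it. The line gave 5.23 h without the 16 h column, an alternative added once the data had been seen. OGA-null larvae had the same bend at the same times: the median share of 12 h signal kept was 82.6%, 48.8% and 19.6% at 16, 20 and 24 h. The line through the OGA-null medians gave 5.15 ± 1.10 h, and its steps corresponded to 14.5, 5.30 and 3.05 h. Within this window the medians of the genotypes were therefore close to each other, while the level differed, with an OGA-null median of 14.3 per base at 12 h and 2.79 at 24 h. Whether the shares differed between genotypes was not tested, since neither has replicate values.

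**Figure D1:**
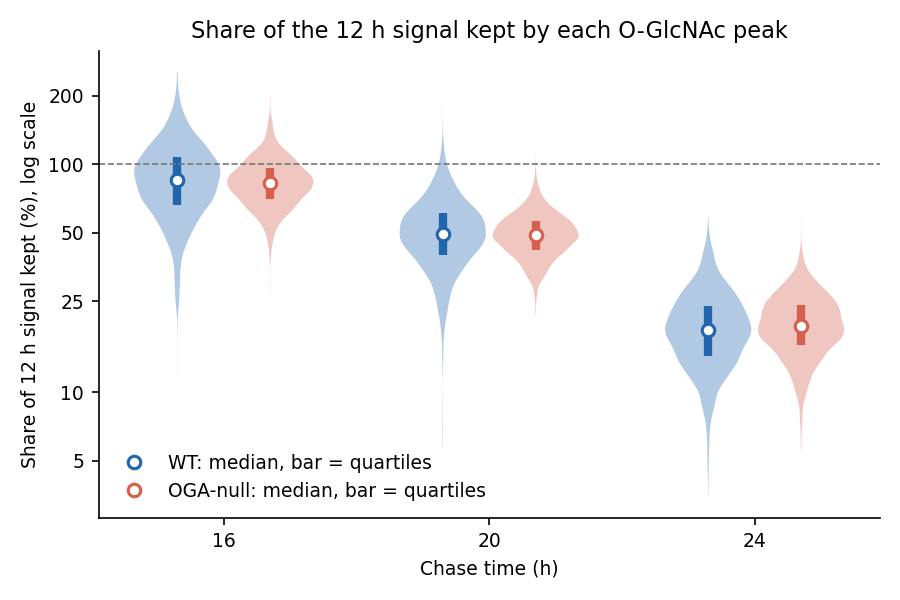
Share of the 12 h signal kept by each of the 1883 O-GlcNAc peaks (vertical log axis, percent) against chase time (h) in WT and OGA-null larvae. Outlines show the distribution over peaks, circles the median, bars the quartiles and the dashed line 100%; the medians of both genotypes lie close together at each time (85.7 and 82.6%, 49.6 and 48.8%, 18.7 and 19.6%), and the WT outlines are the wider ones.

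Single peaks scattered widely about these medians. At 16 h the middle 50% of WT peaks kept between 66.3 and 107% of their 12 h signal, and the extremes were 12.4 and 254%. The corresponding quartiles were 39.9 and 60.9% at 20 h, with extremes of 5.61 and 179.9%, and 14.4 and 23.9% at 24 h, with extremes of 3.48 and 58.7%. From the 5th to the 95th percentile the shares spanned a ratio of 3.40 at 16 h, 3.23 at 20 h and 3.49 at 24 h. The scatter was therefore about as wide over the first 4 h as over 12 h. The 16 to 20 h and 20 to 24 h steps spanned wider ratios, 3.85 and 4.47. OGA-null shares of the 12 h signal spanned a ratio of 2.18, 2.06 and 2.73 at 16, 20 and 24 h, in columns with more signal per base. Each 4 h step from the start of the chase to 12 h had spanned 1.58 to 2.01 in WT, again in columns with more signal.

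The signal per base itself varied more between peaks at 16 h than at 12 h, with a coefficient of variation over peaks of 25.1% at 12 h and 42.7% at 16 h, then 36.3% at 20 h and 35.7% at 24 h. The highest value of the 16 h column, 18.2 per base, exceeded the highest of the 12 h column, 12.4 per base. Its lowest, 0.630, was under the lowest at 12 h, 1.75.

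Many peaks did not fall at every step. At 16 h, 611 of 1883 peaks (32.4%) were above their 12 h value. At 20 h only 28 (1.49%) were still above their 12 h value, and at 24 h none were, the highest share being 58.7%. Against the column before, 177 peaks (9.4%) were higher at 20 h than at 16 h, and 41 (2.18%) were higher at 24 h than at 20 h. In all, 1064 peaks (56.5%) were lower at each later time than at the time before, 809 rose in 1 of the 3 steps, 10 rose in 2 and 0 rose in all 3. Without the 16 h column, 1814 peaks (96.3%) fell at each later time, an alternative chosen after seeing the data. With a column left out this count can only stay or rise. In OGA-null larvae 387 peaks (20.6%) were above their 12 h value at 16 h. By 24 h, 1485 WT peaks (78.9%) had under 25% of their 12 h signal, against 9 at 16 h and 79 at 20 h.

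The peaks at both ends of the range were mostly narrow. Of the 5 that kept most of their 12 h signal at 24 h, 4 had the minimum width of 20 bp, and of the 5 that kept least 3 did, where 679 of the 1883 peaks have that width. They are named by the rule that ranks the share at 24 h, so their shares are a description. The lowest share belonged to a 31 bp peak on X at 14844768 to 14844798. Its signal per base was 6.22, 3.56, 0.520 and 0.216 at 12, 16, 20 and 24 h, so that it kept 3.48%. Its lowest share of the 3 steps was that from 16 to 20 h, where it kept 14.6%, against a median of 57.5%.

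The 20 bp peak on 2L at 22012223 to 22012242 took another path to a similar end. It had 5.92 per base at 12 h and 1.78 at 16 h, then 2.24 at 20 h and 0.238 at 24 h. It kept 4.03% at 24 h, yet was higher at 20 h than at 16 h. On 3R, the 20 bp peak at 19803208 to 19803227 kept nearly all of its 12 h signal at first. Its values were 4.95, 4.74, 2.75 and 0.210 per base at 12, 16, 20 and 24 h, and in the last step it kept 7.65%, which left 4.25% of the 12 h signal. The remaining pair of the 5 lay on 3R at 11071153 to 11071198 (4.58% kept) and on 2L at 13012803 to 13012822 (4.71% kept), and both fell at every step. In OGA-null larvae these 5 peaks kept between 8.95 and 36.9%, which places them from percentile 1.06 to percentile 98.9 of all OGA-null peaks. A very low share in WT was thus found both at peaks with a low and at peaks with a high share in OGA-null larvae.

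The highest share at 24 h, 58.7%, belonged to the 20 bp peak on 2L at 12691853 to 12691872. Its signal per base was 3.62, 3.48, 2.50 and 2.12 at 12, 16, 20 and 24 h. The next, also 20 bp on 2L, at 1607593 to 1607612, kept 56.2%. It had 2.46 per base at 12 h and 4.53 at 16 h, then 2.15 at 20 h and 1.38 at 24 h, so its 16 h value was the highest of the 4. On 2R, the 27 bp peak at 5450049 to 5450075 had its lowest value at 16 h: 3.08, 1.02, 1.71 and 1.55 per base at 12, 16, 20 and 24 h, with 50.2% kept. The last 2 of the 5, on 3R at 19875330 to 19875349 and on 2L at 5969153 to 5969172, kept 49.9 and 49.7% and were both above their 12 h value at 16 h.

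These 5 peaks had between 2.46 and 3.62 per base at 12 h, all below the median of 5.41, and between 1.38 and 2.12 at 24 h, all above the median of 1.02. The 5 that kept least had between 4.95 and 6.33 at 12 h and between 0.210 and 0.290 at 24 h. The sets do not overlap at either time, which follows in part from how they were chosen, since both values enter the share. The nearest interval of the deposited OGA list lay 39, 409, 363, 264 and 318 bp from the 5 that kept most, and 117952, 8496, 2938, 522 and 3949 bp from the 5 that kept least. Of all 1883 peaks, 492 have an interval within 1 kb. In OGA-null larvae the 5 peaks that kept most in WT kept 14.4, 17.2, 16.7, 15.8 and 26.1%, in the order named. The first 4 of these lie below the OGA-null median of 19.6%, at percentiles 16.1, 32.8, 29.2 and 23.5 of all OGA-null peaks, and the last at percentile 83.1.

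Wide peaks, whose values sum more bases, covered a smaller range. Among the 296 peaks of 100 bp or wider on 2L, 2R, 3L, 3R and X the share at 24 h ran from 7.56 to 32.7%, with a median of 17.8%. The lowest was a 108 bp peak on 2L at 15762673 to 15762780, which overlaps an OGA interval. It had 9.23, 5.73, 2.90 and 0.698 per base at 12, 16, 20 and 24 h, and lost more than the median peak in each of the 3 steps. The 146 bp peak on 3R at 5376532 to 5376677 had 10.6, 4.59, 3.54 and 0.935 per base at the 4 times and kept 8.85%, having kept 43.4% in the first step. The 253 bp peak on 2L at 4371837 to 4372089 had 7.59, 6.06, 3.58 and 0.743 per base and kept 9.79%, having kept 79.8% in the first step. These peaks of close final share thus differed in how much had been lost by 16 h. The other 2 of the 5 were on 2L at 8778339 to 8778439 (9.89%) and on 3L at 17570796 to 17570986 (10.3%), the latter at 105.9% of its 12 h value at 16 h.

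At the other end, the 163 bp peak on 2R at 5162439 to 5162601 had 5.59 per base at 12 h and 6.64 at 16 h, then 4.12 at 20 h and 1.83 at 24 h and kept 32.7%. The 117 bp peak on 3R at 5254103 to 5254219 had 6.27, 7.83, 3.62 and 1.99 per base and kept 31.7%. Both were above their 12 h value at 16 h, as was the 259 bp peak on 3L at 3399811 to 3400069, which had 5.75, 8.68, 3.15 and 1.72 per base and kept 29.98%. The other 2, on 3L at 5772335 to 5772474 and at 4138564 to 4138744, were below it at 16 h, with 85.5 and 73.1%. They reached 30.4 and 29.98% through the last step, of which they kept 77.6 and 77.3% against a median of 38.1%. In OGA-null larvae the 5 wide peaks that kept least in WT had kept 15.7 to 22.4%, and the 5 that kept most 17.2 to 23.7%, so the ranges overlapped.

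The 5 peaks with the highest signal per base at 12 h kept between 16.9 and 29.5% at 24 h, and 4 of them were higher at 16 h than at 12 h. The highest, 276 bp on 3R at 19685187 to 19685462, had 12.4, 14.3, 7.67 and 2.41 per base at 12, 16, 20 and 24 h. The 64 bp peak on 2L at 13211944 to 13212007 reached the highest 16 h value of all peaks. It had 11.0, 18.2, 7.88 and 3.26 per base, and its 3.26 was also the highest of the 24 h column. The others were on 2L at 12461212 to 12461403 (16.9% kept), on 2RHet at 2165443 to 2165518 (21.6%) and on 3R at 5245106 to 5245199 (20.2%). Only the last of these was lower at 16 h than at 12 h, with 9.20 against 11.0 per base. All 5 stayed above the median peak at all 4 times.

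The widest peak, 557 bp on 3L at 9369687 to 9370243, overlaps an OGA interval. It had 8.27 per base at 12 h and 5.19 at 16 h, then 2.99 at 20 h and 1.15 at 24 h and kept 13.9%. The next in width, 478 bp on X at 19047364 to 19047841, kept 17.4%, and those on 3L at 6957450 to 6957899, on 3R at 16608472 to 16608879 and on 2L at 13060057 to 13060454 kept 18.5, 18.3 and 24.4%. Of these 5, only the one on 2L had as much signal at 16 h as at 12 h, with 6.14 per base at both times.

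**Figure D2:**
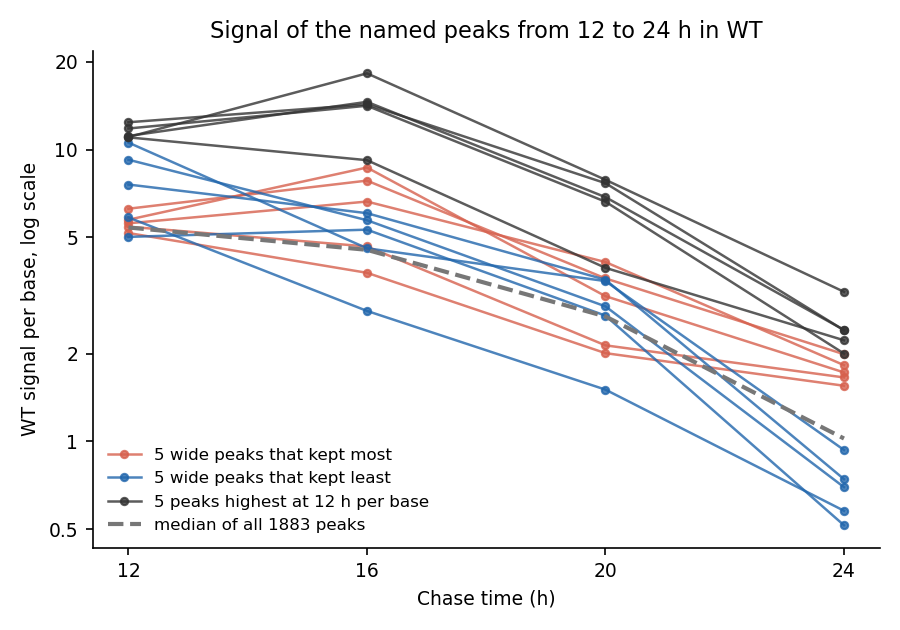
WT signal per base (vertical log axis) at 12, 16, 20 and 24 h of chase (horizontal axis) for the 5 peaks of 100 bp or wider that kept most and the 5 that kept least of their 12 h signal, the 5 peaks highest at 12 h, and the median of all 1883 peaks (dashed). Each line is 1 peak; the 2 sets of wide peaks separate at 24 h, where they were chosen, but cross at 16 h, and 4 of the 5 highest peaks were higher at 16 h than at 12 h.

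In WT, the first and last of the 3 steps showed little agreement in which peaks kept most. The 12 to 16 h and 20 to 24 h steps share no column, and across the 1883 peaks their shares had a Spearman's rho of -0.108. Within the 4 classes of width the rho lay between -0.145 (over 100 bp) and -0.0301 (51 to 100 bp). Of all peaks, 439 kept more than the median share in both of these steps, 440 in neither and 1004 in 1 of them. The lists of the 10% of peaks that kept most in each step, 188 peaks each, shared 8 peaks (4.26% of each list). Those that kept least shared 17 (9.04% of each list). Unrelated lists of this size would share about 10% of each list. The 16 to 20 h step shares a column with each of the others, so a high 16 h value raises one share and lowers the next, and its agreement with them is not given. Over all 3 steps, 65 peaks kept more than the median share each time and 54 less or equal each time. Both counts include the 16 to 20 h step, whose shared columns lower them, so they do not measure agreement. The 12 to 16 h and 20 to 24 h steps had a rho of 0.203 in OGA-null larvae, opposite in sign to that in WT.

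Seen from the WT columns, rho was not ordered by genotype. Across peaks, signal per base at 16 h in WT had a rho of 0.373, 0.645, 0.503 and 0.632 with the OGA-null columns of 12, 16, 20 and 24 h. Against columns of its own genotype its rho was 0.506 with 12 h, 0.513 with 20 h and 0.320 with 24 h. The WT 12 h column too had a higher rho with OGA-null 16 h, 0.580, than with WT 16 h, and the WT 20 h column had 0.523 with OGA-null 24 h. The WT 24 h column had rho between 0.262 and 0.366 with the WT columns of 12, 16 and 20 h and the 4 OGA-null columns from 12 to 24 h. These points share the peak and its base composition, and no library. No rho between the signal per base of OGA-null columns is given here. OGA-null columns had more signal per base, with medians of 14.3 against 5.41 at 12 h and 11.7 against 4.54 at 16 h. What part this has in the rho values was not tested.

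Shares of the first step were partly alike in the genotypes. The share of 12 h signal kept at 16 h had a rho of 0.315 between WT and OGA-null larvae, and between 0.277 and 0.428 within the 4 classes of width. Ranked into 5 groups of 376 or 377 peaks by the WT share at 16 h, the peaks had OGA-null medians at 16 h of 74.7, 78.8, 83.3, 85.8 and 93.7%, rising in the same order. Their OGA-null medians at 24 h rose too, from 16.7% in the group that kept least in WT to 23.6% in the group that kept most. Their WT medians in the 20 to 24 h step did not rise, at 39.8, 40.2, 38.3, 36.6 and 35.5%. The lists of the 10% of peaks that kept most at 16 h in each genotype shared 49 of 188 peaks (26.1%). Those that kept least shared 30 (16.0%), where unrelated lists would share about 10%.

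By 24 h the resemblance between genotypes was weaker. The share of 12 h signal kept at 24 h had a rho of 0.0477 between WT and OGA-null larvae over 1883 peaks. It was 0.118 among the 1412 peaks left without the 25% lowest in 12 h signal per base. Of the 188 peaks that kept most at 24 h in WT, 18 (9.57%) were among the 188 that kept most in OGA-null larvae. Of those that kept least, 26 (13.8%) were shared. Each list is 10% of all peaks, so unrelated lists would share about 10%, and the overlap of 18 is near that share. For the last step alone, 20 to 24 h, the rho between genotypes was -0.0598. Nor did the late share follow the early one within WT: the share of 0 h signal kept at 8 h had a rho of -0.00430 with the share of 12 h signal kept at 24 h. With the share kept at 16 h it had a rho of 0.187.

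**Figure D3:**
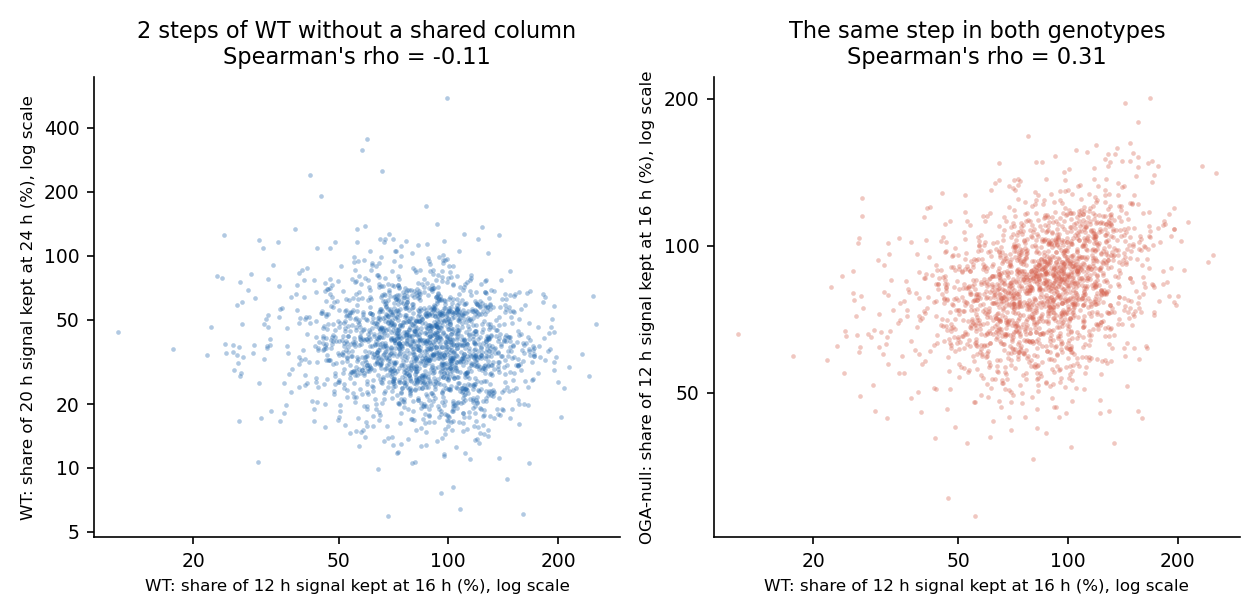
Left, share of 20 h signal kept at 24 h against share of 12 h signal kept at 16 h in WT, both in percent on log axes. Right, share of 12 h signal kept at 16 h in OGA-null larvae against the same share in WT; each point is 1 of 1883 peaks, and the left cloud shows almost no slope (rho -0.108) while the right one rises (rho 0.315).

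Peaks with more signal at 12 h kept a smaller share of it at 24 h, but the 12 h value stands in both measures. Split into 4 groups of 470 or 471 peaks by WT 12 h signal per base, the peaks kept medians of 23.2, 19.2, 17.5 and 16.8% at 24 h, from the lowest group to the highest. The rho over 1883 peaks was -0.346, and -0.181 without the lowest group. At 16 h the same groups had medians of 92.5, 82.7, 81.4 and 86.5%, with no steady order.

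Columns that do not enter the share showed little of this dependence at 24 h. Split in the same way by WT 8 h signal per base, the 4 groups kept 19.1, 18.3, 18.6 and 18.5% at 24 h, and the rho was -0.0453. With the WT 4 h column it was -0.0739, with the 0 h column -0.0771 and with the OGA-null 12 h column -0.0650. The rho with the 0 h column turned to 0.0497 when the 25% lowest in 12 h signal per base were left out. The share kept at 16 h, in contrast, rose with the earlier signal. In the 4 groups by WT 8 h signal per base it had medians of 76.8, 81.8, 88.4 and 94.0%, and in those by 0 h signal 80.1, 83.1, 86.5 and 91.2%. Its rho was 0.217 with the 8 h column, 0.206 with the 4 h column and 0.111 with the 0 h column. Peaks with more label early in the chase thus kept a larger share of their 12 h signal at 16 h, and about the same share as others at 24 h.

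**Figure D4:**
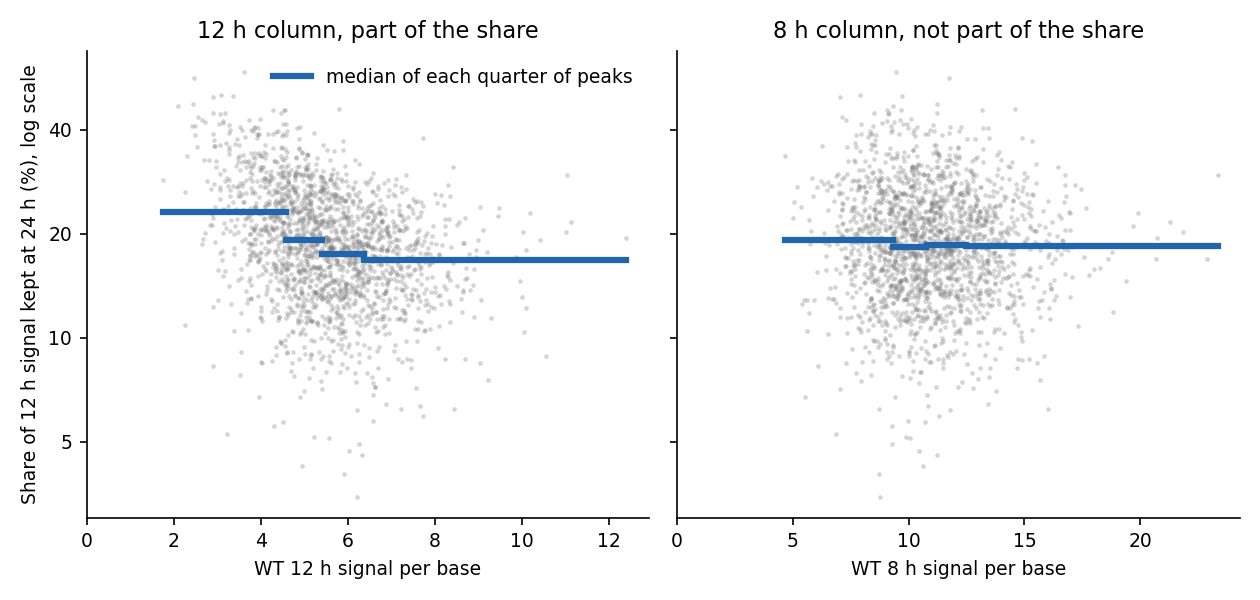
Share of 12 h signal kept at 24 h (vertical log axis, percent) against WT signal per base at 12 h (left) and at 8 h (right); each point is 1 of 1883 peaks and each bar the median of 25% of the peaks. The medians step down from 23.2 to 16.8% against the 12 h column, which is part of the share, and stay between 18.3 and 19.1% against the 8 h column, which is not.

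Width had little bearing on the median share and more on its scatter. The median share at 24 h was 19.5% in the 679 peaks of 20 bp, 18.7% in the 452 of 21 to 50 bp, 18.5% in the 457 of 51 to 100 bp and 17.8% in the 295 over 100 bp. Across peaks the rho with width was -0.0805 at 24 h, -0.0468 at 20 h and 0.0113 at 16 h, and at 24 h it turned to 0.00683 without the 25% lowest in 12 h signal per base. The SD over peaks of the log2 share at 24 h was 0.61, 0.58, 0.53 and 0.36 in the 4 classes. Wide peaks had more signal in all: the median summed signal at 24 h was 19.4 in peaks of 20 bp and 167 in those over 100 bp. What part this has in the scatter was not tested.

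By chromosome, the shares of the autosomal arms were alike at all 3 times. On 2L, 2R, 3L and 3R (373, 397, 408 and 482 peaks) the medians were 86.1, 87.0, 83.9 and 86.0% at 16 h. They were 48.9, 49.3, 49.6 and 49.5% at 20 h and 18.4, 18.3, 19.1 and 18.8% at 24 h. The spread of these medians was small beside the quartiles over peaks, which at 24 h on 2L were 14.3 and 23.7%.

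The X chromosome stood lower at 16 h, and at the later times the sign of its difference varied with peak width. Its 141 peaks kept a median of 73.9% at 16 h, against 86.0% on the autosomal arms (a log2 difference of -0.22), and 28 of them (19.9%) were above their 12 h value, against 545 of the 1660 on the arms (32.8%). At 20 h X kept 48.6% against 49.3%, and at 24 h 17.9% against 18.6%, log2 differences of -0.02 and -0.06. The lower share at 16 h was found in all 4 classes of width, with differences from -0.25 to -0.10 log2. At 20 h the classes went in opposite directions, with X higher by 0.18 and 0.14 log2 in those of 20 bp and 21 to 50 bp and log2 differences of -0.14 and -0.16 in the wider ones. At 24 h X was lower in the 20 bp class (17.6 against 19.5%) and in that over 100 bp (16.8 against 18.0%) and higher in the 2 between. All these shares are divided by the 12 h signal. From 16 to 24 h the X peaks kept a median of 24.6% of their 16 h signal, against 22.1% on the autosomal arms. From 20 to 24 h they kept 38.6 against 38.0%, so X was not lower in these later steps. In OGA-null larvae the difference of X in the share of 12 h signal was -0.08 log2 at 16 h, -0.03 at 20 h and -0.09 at 24 h. On X, the peak that kept most was a 78 bp peak at 1958666 to 1958743, with 4.53, 3.03, 1.78 and 2.06 per base, higher at 24 h than at 20 h, and 45.5% kept.

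The sequences named Het in dm3 hold heterochromatin that is not placed on the arms, and carried 81 peaks with a median width of 20 bp. They kept more than the other 1802 peaks at each time: 98.8 against 84.8% at 16 h, 55.1 against 49.2% at 20 h and 20.6 against 18.5% at 24 h. The log2 differences were 0.22, 0.16 and 0.15, and 37 Het peaks (45.7%) were above their 12 h value at 16 h. The quartiles at 24 h, 17.2 and 26.7%, overlapped those of the other peaks, 14.3 and 23.8%. Among peaks of 20 bp the difference at 24 h was 0.06 log2 and among those of 21 to 50 bp 0.04 log2, so within the widths that most Het peaks have it was smaller than over all peaks. Among peaks of 50 bp or wider, few of which lie on Het, it was 0.35 log2. All these shares are divided by the same 12 h signal. From 16 to 24 h the Het peaks kept a median of 21.3% of their 16 h signal, against 22.2% in the other peaks. From 20 to 24 h they kept 37.3 against 38.1%, so Het was not higher in these later steps. In OGA-null larvae the Het difference in the share of 12 h signal was 0.12 log2 at 16 h, 0.05 at 20 h and 0.33 at 24 h. The Het peaks at the 2 ends were both on 3RHet: the one at 1339194 to 1339213 had 5.40, 3.58, 1.03 and 0.385 per base and kept 7.13%, and the one at 1832154 to 1832180, which overlaps an OGA interval, had 4.47, 4.07, 2.82 and 2.00 and kept 44.6%. Chromosome 4 held 1 peak, at 1052482 to 1052501, which had 6.92, 7.60, 4.07 and 0.868 per base at 12, 16, 20 and 24 h and kept 12.5%.

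**Figure D5:**
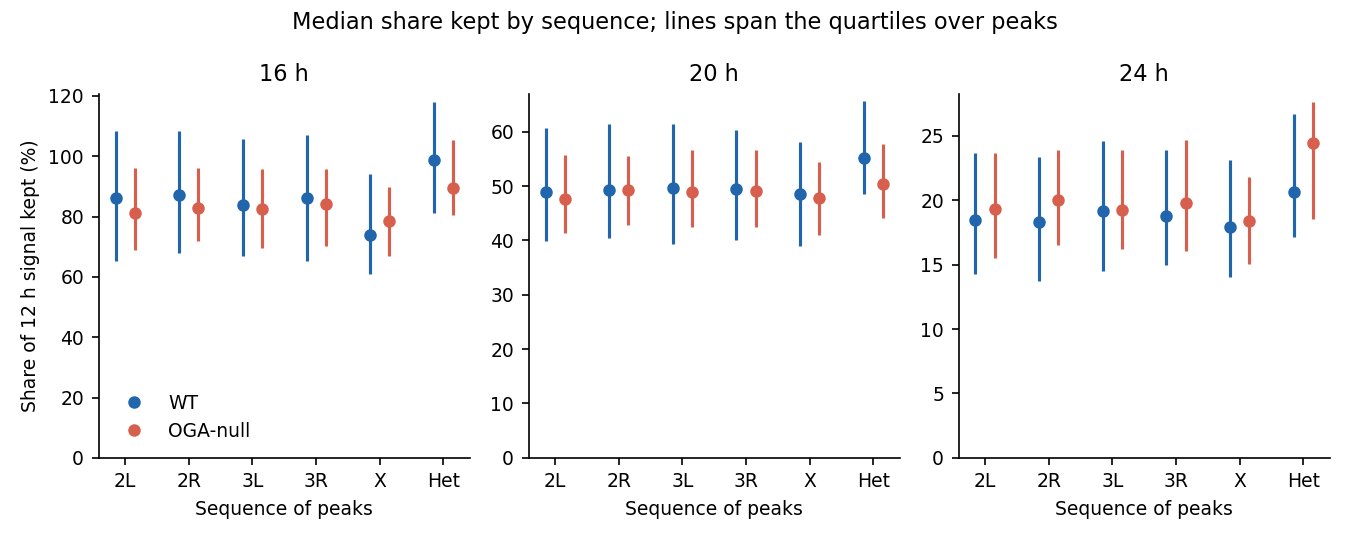
Median share of the 12 h signal kept (percent, axes from 0) at 16, 20 and 24 h by sequence in WT and OGA-null larvae; lines span the quartiles over peaks, with 373, 397, 408, 482, 141 and 81 peaks on 2L, 2R, 3L, 3R, X and the Het sequences. In WT, X is lowest at 16 h (73.9%) and Het highest at all 3 times (98.8, 55.1 and 20.6%), with quartiles that overlap those of the arms.

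Peaks near OGA, from the deposited list of 3534 intervals without scores, had somewhat lower medians at 16 and 20 h, and at 24 h the result varied with the distance used. Peaks with an interval within 1 kb, 492 in all, kept 80.5% at 16 h against 87.3% in the other 1391, 48.1 against 50.0% at 20 h and 18.7 against 18.7% at 24 h. The log2 difference was -0.12 at 16 h and -0.05 at 20 h. At 24 h it was 0.01, too close to 0 for its sign to be read, since it was -0.0152 and -0.0314 under other settings. With a distance of 10 kb, the 1251 peaks near OGA kept 83.7 against 88.6% at 16 h, 49.3 against 50.2% at 20 h and 18.8 against 18.4% at 24 h. The 81 peaks that overlap an interval by at least 1 bp had the lower median at all 3 times: 81.7 against 86.1%, 49.1 against 49.7% and 16.2 against 18.8% in the other 1802. Their median width was 67 bp against 34 bp. In OGA-null larvae the log2 differences for 1 kb were -0.03 at 16 h and -0.02 at 20 h, where WT had -0.12 and -0.05. For the overlap they were -0.04 at 16 h and -3.9e-05 at 20 h, where WT had -0.08 and -0.02. At 24 h the OGA-null differences were -0.09 for 1 kb and 0.01 for the overlap, where WT had 0.01 and -0.21. The 5 peaks that kept most all lie within 1 kb, but the median of all 492 such peaks at 24 h was 18.7%, as in the other peaks. Among the wide peaks named above, the 5 that kept most lay 42254, 6992, 2254, 1556 and 43 bp from an interval. The 5 wide peaks that kept least lay 0, 9604, 10173, 2995 and 985 bp from one.

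The shares of neighbouring peaks were partly alike over short distances. In 270 pairs of adjacent peaks at most 500 bp apart, the shares had a rho of 0.317 at 16 h, 0.217 at 20 h and 0.121 at 24 h, and in OGA-null larvae 0.275, 0.237 and 0.333. In 193 pairs over 500 and up to 2000 bp apart the WT rho was 0.144, 0.143 and -0.0302, and beyond 2000 bp it lay between -0.0454 and 0.0933 at the 3 times. Adjacent peaks come from the same libraries and are not independent values. Whether the same DNA fragments count in both peaks of a close pair was not tested. In windows of 1 Mb with at least 10 peaks, 70 in all, the median share ran from 61.9 to 111% at 16 h, from 38.4 to 70.8% at 20 h and from 11.5 to 24.3% at 24 h. Across these windows the rho between genotypes was 0.361 at 16 h and 0.227 at 24 h.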

How the data were processed

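O-GlcNAc-seq of fixed, sonicated larval chromatin was measured in 2 libraries per genotype and chase time. The authors' deposited values are signal, which grows with peak width as summed coverage does, in 1 column per genotype and time that combines replicates 1 and 2, per the file headers. Tools listed in the submitters' processing notes are SAMtools and bedtools 2.17.0, and builds are sacCer3 and dm3, with no role for any. Aligner, peak caller and scaling are not given in the sources. No total per library is given, so precision per value is unknown.

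Signal was divided by peak width for levels, with no pseudocount, and by the 12 h signal of the same peak for shares. Medians, counts and Spearman's rho over peaks were computed with Python 3.11.15, numpy 2.4.6, pandas 2.3.3 and scipy 1.17.1, and the code was tested on simulated data. Combined columns allow no test, so no p-value is given. Groups and times came from the labels. Named were the 5 peaks that kept most and least at 24 h, the same among peaks of 100 bp or wider on the arms and X, the 5 highest per base at 12 h, the 5 widest, and both ends on X, chromosome 4 and Het. The peaks, lists and settings were chosen with earlier results of these data known. Alternatives were pseudocounts of 1 and 10, peaks of 50 bp or wider, peaks within 500 bp merged, the 25% of peaks lowest in 12 h signal per base left out, arms and X only, other times and other OGA distances.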

Additional observations from a re-analysis of the deposited data

How the results depend on the processing

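Of 121 alternative values for 17 results, 99 stayed within 10% of a share, 0.05 of a rho or log2 difference, or 1.5 times a count. Another 14 moved further and 8 changed sign. Some of the 99 could not have differed, as given below. With a pseudocount of 10, which is large beside the signal of a narrow peak, the median share was 22.9% from 12 to 24 h and 44.2% from 20 to 24 h, and the share at 24 h had rho of -0.531, -0.282 and -0.431 with 12 h signal per base, 0 h signal per base and width. Among the 757 peaks of 50 bp or wider, 235 were above their 12 h value at 16 h and 633 under 25% of it at 24 h (fewer peaks enter), the rho with 12 h signal per base was -0.286, and the log2 differences at 24 h were 0.35 for Het and -0.0314 for OGA within 1 kb. Without the 25% lowest in 12 h signal per base, the rho was -0.181 with 12 h and 0.0497 with 0 h signal per base, 0.00683 with width and 0.118 between genotypes, and the OGA difference was -0.0152. With the share at 16 h in place of 24 h the differences were -0.22 for X, 0.22 for Het and -0.12 for OGA within 1 kb; at 20 h the last was -0.0541, and the rho with 0 h signal was 0.0283. With OGA overlap it was -0.21. Leaving out the 16 h column was chosen after seeing the data. It raised the peaks lower at each later time from 1064 to 1814, a count that cannot fall when a column is left out. Beyond fewer peaks or another time, the cause was not tested. No peak was at 0, so leaving out such peaks could not change any result, and these values are among the 99. Also among them are the 611 peaks above their 12 h value at 16 h under both pseudocounts, which cannot alter that count. The difference of X with arms and X only is a further one, since it uses no other sequences. Leaving out replicates was not possible, and no paired analysis was possible because each column combines both replicates. Shares scattered most among narrow peaks, and every level across times rests on a scaling that is not given.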
